A study of Mus musculus with 6 samples.

Results

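The replication-dependent histone genes are the genes of the 4 numbered histone clusters, whose mouse symbols begin with Hist1h to Hist4h. They were taken as every row of the deposited expression table whose symbol has that form, which gave 68 of 22731 rows: 54 of cluster 1 on chromosome 13, 10 of cluster 2 on chromosome 3, 3 of cluster 3 on chromosome 11 and 1 of cluster 4 on chromosome 6. By the histone type in their symbols, 6 were linker histone H1 genes and 18, 19, 12 and 13 belonged to the core histones H2A, H2B, H3 and H4, with 1 H2B row, Hist3h2bb-ps, being a pseudogene. The table held RNA-seq of mouse retina from a rod-specific Dicer1 conditional knockout (cKO), in which the ribonuclease that matures microRNAs is removed by Cre from rod photoreceptors, and from its control. Both groups were homozygous for the floxed Dicer allele (Dicer fl/fl) on a mixed C57BL/6J and SJL background, and were 4 weeks old. The cKO animals carried the iCre75 transgene, whose rod promoter drives Cre, and the controls did not. Other retinal cells keep Dicer1, and each of the 3 cKO libraries (numbered 2, 3 and 4) and 3 control libraries (numbered 1, 2 and 3) pooled the RNA of 4 mice, so the spread given is between pools.

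Replication-dependent histone genes supply the histones that package newly copied DNA, and they are transcribed mainly in S phase. Their messenger RNAs usually end in a short stem-loop instead of a poly(A) tail: the stem-loop-binding protein SLBP holds the stem-loop, and the RNA is cut just after it with the help of the U7 small nuclear RNP. Some of these genes are known to make longer, polyadenylated transcripts as well, in cells that have stopped dividing. Selection on poly(A), which was used for these libraries, retains tailed transcripts and removes most of those that end at the stem-loop, so the values here are levels in poly(A)-selected RNA and not total histone messenger RNA. The mature retina consists of cells that have left the cell cycle, and most of them are rods.

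The stem-loop itself is shown first, because it marks where the untailed transcript ends. Of each member, only the longest GENCODE M21 transcript (GRCm38), a coding one where annotated, was searched after the stop codon. A match was 16 bases that open with GG, close with CC and have a loop opening with TT. Their first 6 bases had to pair with their last 6 (G-T pairs allowed). The stem-loop was found in 43 members, beginning 21 to 58 bases after the stop codon with a median of 31. Of the 24 coding members without a match, 15 had under 30 annotated bases after the stop codon. The lack of a match therefore does not show that a gene lacks the stem-loop. A match to the stem-loop anywhere is held by 0.83% of all 141767 GENCODE transcripts. The lines below show it in capitals with 7 transcript bases on either side, for the 3 most abundant genes that have it, for Hist1h1e, for 4 H4 genes that the comparison of groups turns on, and for Hist1h2ag, whose annotated transcript stops shortly after it.
Hist3h2ba: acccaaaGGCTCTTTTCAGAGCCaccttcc
Hist1h1c: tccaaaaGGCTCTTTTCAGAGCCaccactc
Hist3h2a: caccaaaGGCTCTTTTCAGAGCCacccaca
Hist1h1e: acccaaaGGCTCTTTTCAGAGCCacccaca
Hist2h4: ccctaacGGCCCTTTTTAGGGCCaaccaca
Hist1h4d: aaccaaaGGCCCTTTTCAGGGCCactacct
Hist1h4i: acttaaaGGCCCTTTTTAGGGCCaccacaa
Hist1h4c: aacaaaaGGCCCTTTTCAGGGCCacccaca
Hist1h2ag: caacaaaGGCTCTTTTCAGAGCCacctaac

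The form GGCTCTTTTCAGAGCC was found in 3 H1, 10 H2A, 7 H2B and 5 H3 genes and in no H4 gene. H4 genes carried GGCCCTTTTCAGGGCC (7 genes), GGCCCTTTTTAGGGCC (2 genes, Hist2h4 and Hist1h4i) or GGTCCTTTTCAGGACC (2 genes). The remaining members with a match had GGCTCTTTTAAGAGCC (1 H1, 2 H2B and 3 H3 genes) or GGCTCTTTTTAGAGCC (1 H2A gene). On GRCm38 the stretch printed for Hist2h4 is chr3:96262932-96262961 on the minus strand, and that for Hist1h4d is chr13:23581943-23581972 on the plus strand. Those of the most abundant genes are chr11:58949342-58949371 for Hist3h2ba, chr13:23739505-23739534 for Hist1h1c and chr11:58955165-58955194 for Hist3h2a, all on the plus strand. All of them lie in the annotated 3′ UTR.

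The whole series was sequenced to between 12336599 and 32935029 reads in genes per library, worked back from the steps of the deposited values. The lowest total is that of cKO library 4. The steps give the smallest whole reads that fit, so a library in which every read had been counted 2 times would look the same, and read numbers are as worked back; RPKM values are not touched by this. RPKM, the unit of the table, divides the reads of a gene by the length of its gene model and by the depth of the library. Dicer1 itself, whose deletion is confined to rods, was at 8.02, 7.06 and 7.90 RPKM in cKO libraries 2, 3 and 4 and at 8.48, 8.77 and 8.33 in control libraries 1, 2 and 3. Its cKO values lay below all controls, and it did not pass the test across genes (limma, Benjamini-Hochberg adjusted p = 0.931). Rod markers summed to between 19376 and 21385 RPKM in cKO and between 20547 and 23892 in controls, with all 5 of 5 present, while the red blood cell markers Hbb-b1 and Hba-a1 were at 0 throughout. Lens markers varied within both groups, from 96.9 to 1312 RPKM in cKO and from 177 to 1762 in controls, and their part in the results below was not tested. In whole tissue, fewer cells of a type and less RNA per cell cannot be told apart.

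A few members carried nearly all the histone signal. Of the 68 members, 16 averaged 1 RPKM or more over the 6 libraries, 21 lay between 0.1 and 1, 24 were above 0 but under 0.1, and 7 were listed at 0 in every library. Hist3h2ba alone made up 36.5% of the summed RPKM, the top 2 members 61.9%, the top 4 members 83.5% and the 16 members together 97.0%. All members together took between 5554 and 13990 reads per library, which was 0.0333% to 0.0450% of the reads in genes.

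**Figure D1:**
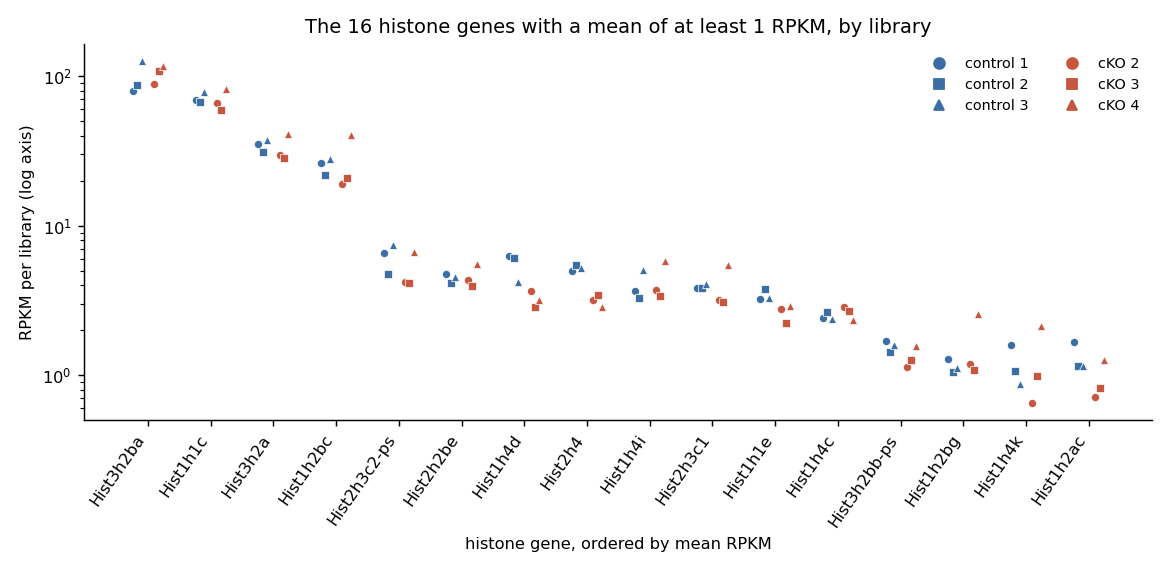
RPKM of the 16 histone genes averaging 1 RPKM or more, in each library (log axis, genes ordered by mean, control libraries in blue and cKO libraries in red). Hist3h2ba, Hist1h1c, Hist3h2a and Hist1h2bc stand above 18 RPKM in every library, and all other members stay under 8.

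The gene with the highest level was Hist3h2ba, an H2B gene of cluster 3, at 88.7, 108 and 118 RPKM in cKO libraries 2, 3 and 4 and 79.9, 86.8 and 126 in control libraries 1, 2 and 3. Its groups overlapped, and the control with the highest value lay above all cKO values. The means were 105 ± 14.7 RPKM in cKO and 97.7 ± 25.0 in controls (SD, n = 3 each), a log2 fold change of 0.12 (standard error 0.19, limma adjusted p = 0.997). Its neighbour Hist3h2a, which encodes an H2A, was at 29.6, 28.2 and 41.0 RPKM in cKO and 35.1, 31.1 and 37.2 in controls. There cKO library 4 was the highest of all 6 and the other cKO libraries were the lowest, with a log2 fold change of -0.08 (standard error 0.15, limma adjusted p = 0.997). Hist3h2a overlaps Trim17 on the same strand and Gm44313 on the other in the GENCODE annotation, and without strand in the reads these cannot be told apart from it where they overlap.

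Hist1h1c, which encodes the linker histone H1.2, was at 66.3, 59.6 and 82.2 RPKM in cKO and 68.8, 67.7 and 77.9 in controls. Its groups overlapped, with a log2 fold change of -0.05 (standard error 0.13, limma adjusted p = 0.997). Hist1h2bc, an H2B gene, was at 18.9, 20.7 and 40.7 RPKM in cKO and 26.4, 21.7 and 27.9 in controls. The means of the groups, 26.8 ± 12.1 and 25.3 ± 3.19 RPKM (SD, n = 3 each), were close, but cKO libraries 2 and 3 lay below every control and cKO library 4 above every control. Without cKO library 4 its log2 fold change moved from 0.00 to -0.34, with a limma adjusted p of 0.492. Hist2h2be, another H2B gene, was at 4.30, 3.97 and 5.58 RPKM in cKO and 4.77, 4.16 and 4.55 in controls, again with cKO library 4 on top.

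The libraries of a group differed from each other across the family. Among the 16 members, cKO library 4 held the highest cKO value for 13, and control library 3 the highest control value for 7. The summed RPKM of all members was 245, 253 and 330 in cKO libraries 2, 3 and 4 and 261, 255 and 319 in control libraries 1, 2 and 3, so that the highest library of each group exceeded the others of its group by more than the group means differed. In reads as worked back, cKO library 4 was the shallowest library, with 12336599 reads in genes, and control library 3 the deepest. Among the tested genes outside the family, the 5 whose pattern over the 6 libraries was most like that sum on the log2 scale were Brd8 (Pearson r = 0.999), Upf3a (0.996), Tchp (0.995), Ccdc34 (0.995) and Gas8 (0.992). The likeness is a description over 6 libraries that share these depths. Brd8, a bromodomain protein of a histone acetyltransferase complex, went from 15.6 to 18.7 RPKM across the cKO libraries and from 16.0 to 18.2 across the controls.

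The main comparison asked whether these histone transcripts differed between cKO and control retina. None of the 16 members tested passed the threshold in either direction (limma on log2 of RPKM + 0.5, adjusted p under 0.05). The same fit called 1 gene higher (0.00794%) and 0 lower (0%) among all 12599 tested genes, and limma voom on the recovered reads also called 0 of the 16 members. At an unadjusted p under 0.05, 3 members were lower and none was higher, while 3.06% of all tested genes were lower and 2.65% higher at that level. All 3 cKO values lay below all 3 controls for 3 of the 16 members (5.78% of all tested genes) and above them for none (5.91%). These 3 were the same genes, Hist2h4, Hist1h4d and Hist1h1e. The median log2 fold change of the 16 members was -0.05, beside -0.01 over all tested genes, with 9 members lower and 7 higher.

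**Figure D2:**
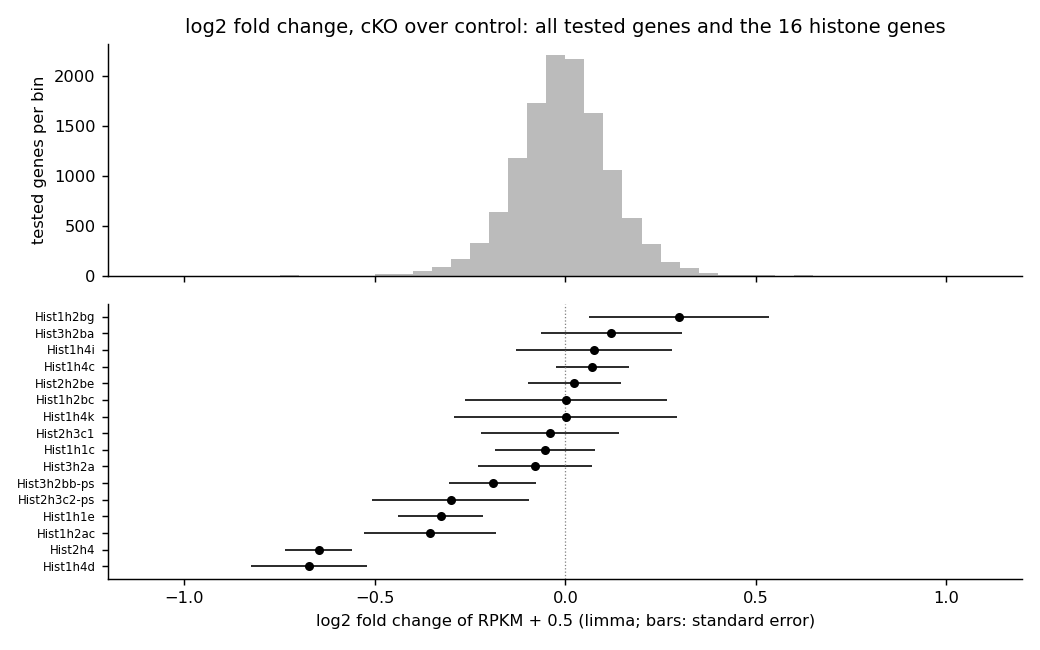
Upper panel: number of tested genes per bin of log2 fold change (cKO over control); 3 of the 12599 lie outside the plotted range. Lower panel: the 16 histone genes with their log2 fold change and standard error from limma; Hist1h4d and Hist2h4 lie near -0.7, and the other 14 between -0.36 and 0.30.

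The smallest p among the members belonged to Hist2h4, the H4 gene of cluster 2, at chr3:96261682-96263311 (GRCm38, minus strand). Its level was 3.16, 3.45 and 2.85 RPKM in cKO libraries 2, 3 and 4 and 5.01, 5.45 and 5.18 in control libraries 1, 2 and 3. All 3 cKO values were lower than every control, and the gap between the groups was wider than the spread within either. The cKO mean was 60.5% of the control mean, from 3.15 ± 0.299 to 5.21 ± 0.226 RPKM (SD, n = 3 each). The log2 fold change was -0.65 with a standard error of 0.09, an unadjusted p of 8.78e-05 and a Benjamini-Hochberg adjusted p of 0.158 in limma, which did not pass. The exact permutation test gave p = 0.1, the smallest that 3 against 3 libraries allow. These values rest on few reads, 27, 43 and 15 in cKO and 60, 74 and 73 in controls, and the length worked back for the authors' gene model is 348 bases, while the GENCODE transcript spans 1630.

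Hist1h4d, an H4 gene of cluster 1 at chr13:23581598-23582735 (plus strand), was at 3.66, 2.86 and 3.18 RPKM in cKO and 6.24, 6.08 and 4.19 in controls. The groups did not overlap, but control library 3 lay closer to the cKO values than to the other controls. The cKO mean was 58.7% of the control mean, with a log2 fold change of -0.67 (standard error 0.15, unadjusted p = 0.00237, limma adjusted p = 0.558). Its reads numbered 28, 32 and 15 in cKO and 67, 74 and 53 in controls, and the length worked back for its gene model, 312 bases, is that of the coding stretch alone. The coding stretches of H4 genes resemble each other: of the 50-base windows in that of Hist1h4d, 57.8% occur in no GENCODE gene elsewhere, against 93.9% for Hist2h4. How many reads could be placed in each gene was not measured.

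The other H4 genes at 1 RPKM or more did not share this direction. Hist1h4i was at 3.72, 3.38 and 5.79 RPKM in cKO and 3.68, 3.30 and 5.05 in controls, a log2 fold change of 0.07 (standard error 0.21). For Hist1h4c the values were 2.88, 2.68 and 2.33 RPKM in cKO and 2.42, 2.63 and 2.37 in controls, a log2 fold change of 0.07 (standard error 0.10). Hist1h4k, at 0.654, 0.984 and 2.12 RPKM in cKO and 1.58, 1.07 and 0.870 in controls, rests on 5 to 17 reads per library. All H4 genes encode the same or nearly the same protein. Their 5 tested members therefore gave 2 with cKO values below all controls (5.78% of all tested genes) and 3 that overlapped, a median log2 fold change of 0.00; the difference between these genes was not itself tested.

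**Figure D3:**
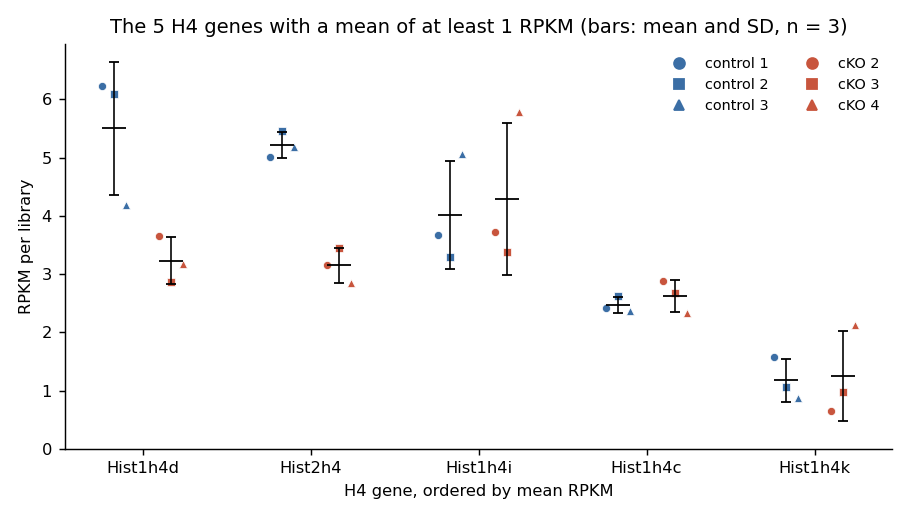
RPKM per library of the 5 H4 genes averaging 1 RPKM or more; points are libraries, bars the mean and SD of 3 libraries per group. The cKO points of Hist1h4d and Hist2h4 lie below all control points, and those of Hist1h4i, Hist1h4c and Hist1h4k overlap them.

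Hist1h1e, a linker histone gene that encodes H1.4, was at 2.79, 2.22 and 2.91 RPKM in cKO and 3.23, 3.80 and 3.26 in controls. The 3 cKO values were below all controls, and the cKO mean was 77.0% of the control mean. The log2 fold change was -0.33 (standard error 0.11, unadjusted p = 0.0198, limma adjusted p = 0.848), on 85 to 286 reads per library. In GENCODE it overlaps Hist1h2be and Gm11398 on the same strand. Hist1h2ac, an H2A gene, was at 0.720, 0.817 and 1.27 RPKM in cKO and 1.68, 1.15 and 1.16 in controls, where cKO library 4 lay among the controls (log2 fold change -0.36, standard error 0.17, limma adjusted p = 0.906). Hist3h2bb-ps, an H2B pseudogene, was at 1.14, 1.26 and 1.56 RPKM in cKO and 1.69, 1.43 and 1.59 in controls, and its groups overlapped (log2 fold change -0.19, standard error 0.11, limma adjusted p = 0.944).

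The H3 genes at 1 RPKM or more were Hist2h3c2-ps and Hist2h3c1, both in cluster 2. None of the 50-base windows of their coding stretches was without a copy in another gene. Over the whole transcripts, 36.5% of the windows of Hist2h3c2-ps and 65.3% of those of Hist2h3c1 were without one. The lengths worked back for their gene models, 1020 and 1825 bases, are those of the whole transcripts. Their separate values are uncertain where copies exist, and how many reads could be placed in each gene was not measured. Hist2h3c2-ps was at 4.20, 4.13 and 6.67 RPKM in cKO and 6.58, 4.73 and 7.38 in controls, and Hist2h3c1 at 3.20, 3.10 and 5.43 in cKO and 3.84, 3.82 and 4.08 in controls. In both genes cKO libraries 2 and 3 lay below every control and cKO library 4 did not. The log2 fold changes were -0.30 (standard error 0.21) and -0.04 (standard error 0.18). The last tested member, the H2B gene Hist1h2bg, had a log2 fold change of 0.30 (standard error 0.24), with cKO library 4 at 2.58 RPKM and the other 5 libraries between 1.04 and 1.28.

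Summed by type, H4 was the only type whose groups did not overlap. H4 summed to 15.7, 14.9 and 17.6 RPKM in cKO libraries 2, 3 and 4 and 21.1, 20.2 and 19.8 in control libraries 1, 2 and 3, so that the cKO mean was 78.8% of the control mean. With Hist2h4 and Hist1h4d left out, a choice made after their values were seen, the other 11 H4 genes summed to 8.83, 8.59 and 11.6 RPKM in cKO and 9.87, 8.68 and 10.4 in controls, which was 100.1% of the control mean. H3 summed to 8.88, 8.60 and 13.01 RPKM in cKO and 12.3, 10.8 and 13.1 in controls, or 84.5%. H1, H2A and H2B stood at 96.4%, 94.9% and 106% of control, each with overlapping groups, and all members together at 99.2%. Within each type the sum was mostly 1 gene for H1 (Hist1h1c, 94.7% of it), H2A (Hist3h2a, 91.8%) and H2B (Hist3h2ba, 74.0%), whereas the leading H4 gene, Hist1h4d, made up 24.0%. No test was made on these sums.

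**Figure D4:**
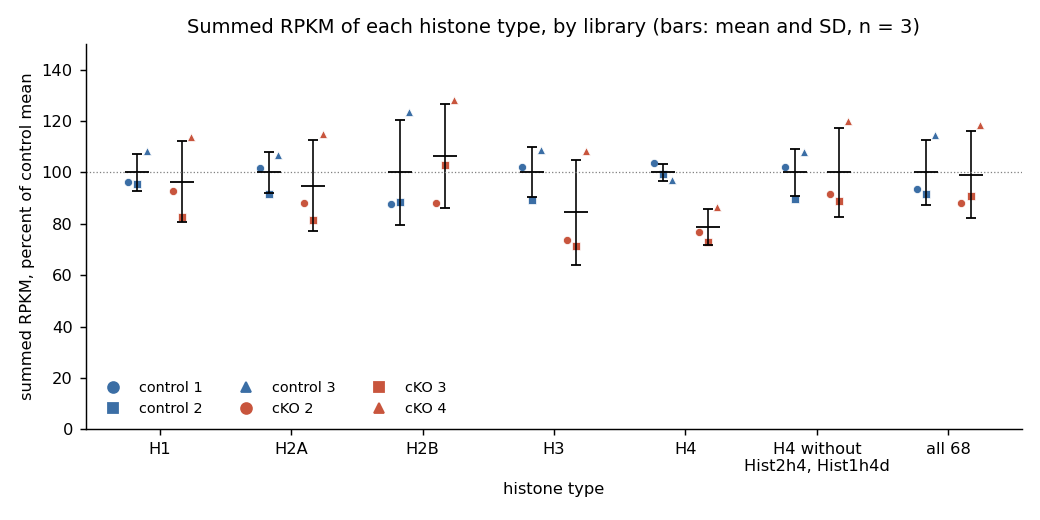
Summed RPKM of each histone type in each library as a percentage of the control mean, with mean and SD of 3 libraries per group. The H4 sums of the cKO libraries lie below all control sums, and without Hist2h4 and Hist1h4d the H4 groups overlap around 100%.

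The 52 members under 1 RPKM together summed to 9.48, 6.81 and 6.44 RPKM in cKO and 8.64, 9.36 and 8.97 in controls, and the groups overlapped. The highest of each type were Hist1h1a (mean 0.390 RPKM) for H1, Hist1h2ak (0.729) for H2A, Hist2h2bb (0.624) for H2B, Hist1h3d (0.671) for H3 and Hist1h4j (0.491) for H4. Those above 0 rested on 1 to 229 reads over all 6 libraries. Of the 21 members between 0.1 and 1 RPKM, 1 had all cKO values below all controls (7.10% of all genes in that range) and none had them above (5.48%). It was the H3 gene Hist1h3d, at 0.496, 0.475 and 0.482 RPKM in cKO and 0.919, 0.874 and 0.781 in controls, from 3 to 14 reads per library. By position Hist1h3d, Hist1h4d and Hist1h1e lie within 46796 bases of chromosome 13 (23575763 to 23622558, GRCm38), a grouping noticed after their values were seen. The ends of this stretch are those of Hist1h3d and Hist1h1e themselves, so which members it holds follows from that choice. The only other member that overlaps it, the H2B gene Hist1h2be, was at 92.3% of control with overlapping groups.

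The 7 members listed at 0 were Hist1h2ao, Hist1h2ap, Hist1h2bq, Hist1h2br, Hist1h4m, Hist1h4n and Hist2h2aa2. All of them have close copies: none of the 50-base windows in their coding stretches, and at most 14.4% of those in their transcripts, was without a copy in another gene. How the authors treated reads that match several places is not given in the sources used here. A value of 0 here therefore does not separate a silent gene from one whose reads were not placed, and 0 reads allow up to 3 reads per library from counting error alone. Of the 8 members with less than 10% of windows without a copy, none reached 0.1 RPKM, whereas 14 of the 38 members with at least 50% reached 1 RPKM.

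Levels went with the annotated end of the transcript. The 21 members whose annotated transcript stops less than 100 bases after the stem-loop had a median of 0.077 RPKM and a highest value of 0.450, and none reached 1 RPKM. Of the 22 members whose transcript goes on for at least 100 bases, 12 reached 1 RPKM, with a median of 1.26 and a range from 0.025 to 101 RPKM. The sequence AATAAA, the usual poly(A) signal, lies after the stop codon in the annotated transcript of 19 members, of which 8 reached 1 RPKM and 4 reached 10 RPKM. It is absent from that of 48 members, of which 7 reached 1 RPKM and none 10 RPKM. Among these are the 15 members with no stem-loop match and under 30 annotated bases after the stop codon. A short annotated end leaves little sequence to search, so absence there does not show that a gene lacks the signal. Hist3h2ba, for example, has 169 annotated bases after its stem-loop, Hist1h1c 840 and Hist3h2a 1643, against 23 for Hist1h2ag, whose mean was 0.023 RPKM.

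**Figure D5:**
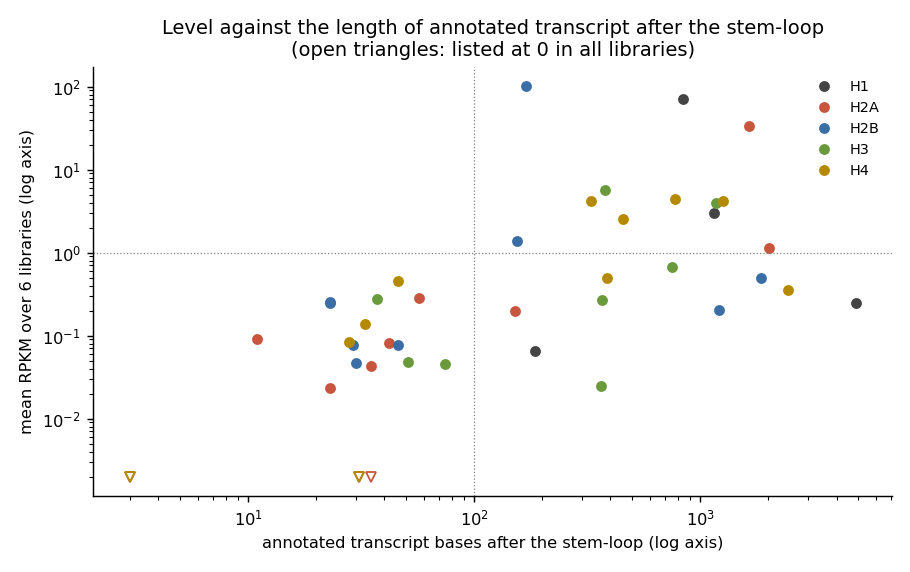
Mean RPKM over the 6 libraries (log axis) against the annotated transcript bases after the stem-loop (log axis) for the 43 members in which it was found, by histone type; open triangles mark members listed at 0. All of these members that averaged 1 RPKM or more lie to the right of the 100-base line.

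These ends are those of the annotation and were not measured here. The members with short ends also had fewer windows without a copy in another gene, at most 61.4% of their transcript. For 29 members, Hist1h4d among them, the length worked back for the authors' gene model equals that of the coding stretch, which leaves out any longer end. The annotated transcripts searched for Hist1h2bc and Hist2h2be hold no match to the stem-loop, and both hold AATAAA. Any other transcripts of these genes were not searched. The part of each of these in the pattern was not tested.

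H2A and H2B genes often lie head to head and share the stretch between their starts. GENCODE places 14 such pairs among the members within 1000 bases of each other, 13 of them H2A with H2B. Partners were often at unlike levels: in the 4 pairs with a member at 1 RPKM or more, Hist3h2a was 23.3 times the level of Hist3h2bb-ps, Hist1h2bc 23.0 times that of Hist1h2ac, Hist2h2be 15.9 times that of Hist2h2ac and Hist1h2bg 6.94 times that of Hist1h2ae, in mean RPKM. These folds compare genes per length of the authors' gene models, and the uncertain placing of reads touches each of them.

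RefSeq promoter windows (GRCm38.p6, 250 bases before to 50 after the start) gave 62 windows for the members. They were searched on both strands for CCAAT, for TATAAA and for ATTTGCAT, the octamer known from H2B promoters; none of these motifs contains another. CCAAT was in every H1, H2A, H2B and H3 window and in 3 of 12 H4 windows, against 37.4% of all 32851 windows of this length. TATAAA was in 56.5% of the members' windows and 13.6% of all windows. ATTTGCAT was in 7 of 17 H2A and 7 of 17 H2B windows, in no H1, H3 or H4 window, and in 1.74% of all windows. These windows are not all separate DNA, because those of head-to-head partners overlap and a match can count for both. The same ATTTGCAT was counted for Hist1h2ah with Hist1h2bk, Hist1h2ae with Hist1h2bg and Hist1h2aa with Hist1h2ba. Hist1h2be entered with windows at separate starts. The windows below are those of the most abundant member, of the H2A gene of the Hist3h2a and Hist3h2bb-ps pair, and of an H4 gene with cKO values below all controls beside one without, with these motifs in capitals on either strand. No window was found for Hist2h4 or Hist1h2bc.
Hist3h2ba: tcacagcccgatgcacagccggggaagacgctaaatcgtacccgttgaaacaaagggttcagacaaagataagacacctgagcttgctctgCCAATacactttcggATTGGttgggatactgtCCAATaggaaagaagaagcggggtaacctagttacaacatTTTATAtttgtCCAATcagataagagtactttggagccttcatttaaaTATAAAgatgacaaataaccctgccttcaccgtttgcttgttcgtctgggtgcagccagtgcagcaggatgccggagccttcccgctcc
Hist3h2a: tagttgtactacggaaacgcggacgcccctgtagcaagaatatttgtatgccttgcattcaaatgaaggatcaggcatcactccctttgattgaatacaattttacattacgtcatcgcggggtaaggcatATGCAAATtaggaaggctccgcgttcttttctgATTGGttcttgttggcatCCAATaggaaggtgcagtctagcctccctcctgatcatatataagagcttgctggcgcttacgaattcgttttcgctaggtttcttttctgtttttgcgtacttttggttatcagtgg
Hist1h4d: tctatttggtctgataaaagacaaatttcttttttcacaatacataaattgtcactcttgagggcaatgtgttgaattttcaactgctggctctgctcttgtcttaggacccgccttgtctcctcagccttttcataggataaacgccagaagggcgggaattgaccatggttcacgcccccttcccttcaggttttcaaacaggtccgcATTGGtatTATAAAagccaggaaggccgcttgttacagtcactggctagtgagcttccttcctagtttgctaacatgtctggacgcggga
Hist1h4c: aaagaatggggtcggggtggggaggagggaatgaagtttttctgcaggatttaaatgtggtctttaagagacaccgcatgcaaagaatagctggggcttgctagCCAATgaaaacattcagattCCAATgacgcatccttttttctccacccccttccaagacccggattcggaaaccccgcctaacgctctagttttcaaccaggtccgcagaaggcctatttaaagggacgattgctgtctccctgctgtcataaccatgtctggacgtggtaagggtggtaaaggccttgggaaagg

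They are chr11:58948661-58948960, chr11:58954435-58954734 and chr13:23581318-23581617 on the plus strand and chr13:23698409-23698708 on the minus strand. The Hist3h2ba window held 4 CCAAT and 2 TATAAA matches. That of Hist3h2a held 2 CCAAT matches and 1 ATTTGCAT match on the opposite strand, within the 173 bases between the starts of the pair. Hist1h4d had 1 TATAAA match, 32 bases before the start, and 1 CCAAT match, and Hist1h4c had 2 CCAAT matches and no TATAAA match. TATAAA was in 8 of 12 H4 windows. Those of Hist1h4i and Hist1h4k, whose groups overlapped, were among them. A match is a description of these letters and not a site of binding.

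Genes that act with the replication-dependent histones were taken from companion lists, and 0 of their tested members passed the threshold in either direction (limma). Of 27 tested genes that process or turn over histone transcripts, 19 were lower and 8 higher, with a median log2 fold change of -0.03 (all tested genes, -0.01). At an unadjusted p under 0.05, 1 was lower (3.06% of all tested genes) and 0 higher (2.65%). All cKO values lay below all controls for 1 (5.78% of all tested genes) and above them for 0 (5.91%). Snrpb, a Sm core protein and the most abundant of them, was at 144 ± 21.3 RPKM in cKO and 143 ± 20.2 in controls (SD, n = 3 each). Slbp, which encodes the stem-loop-binding protein, was at 6.70, 7.95 and 9.85 RPKM in cKO and 8.00, 7.22 and 8.82 in controls, and its groups overlapped. The smallest p was that of Casp8ap2, known as FLASH, a partner of the U7 RNP in cutting histone transcripts. Its level was 1.91, 1.98 and 1.99 RPKM in cKO and 2.52, 2.27 and 2.34 in controls, below all controls, with a log2 fold change of -0.22 (limma adjusted p = 0.848).

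The replication-independent histones are mostly made from ordinary polyadenylated transcripts, and many of them outside S phase too. Of 13 tested, 7 were lower and 6 higher, with a median log2 fold change of -0.01. At an unadjusted p under 0.05, 1 was higher and 0 lower (2.65% and 3.06% of all tested genes). All cKO values lay above all controls for 2 of the 13 (5.91% of all tested genes) and below them for 0 (5.78%). Their sum ran from 394 to 483 RPKM in cKO and from 380 to 437 in controls. H3f3b, which encodes the replacement histone H3.3, was their most abundant gene at 114, 128 and 166 RPKM in cKO and 117, 114 and 126 in controls, and its groups overlapped. H1foo, the oocyte linker histone, had the smallest p, at 1.83, 2.55 and 1.84 RPKM in cKO and 0.652, 1.29 and 1.33 in controls. All its cKO values were above all controls, and it did not pass (log2 fold change 0.71, limma adjusted p = 0.758). The other gene with cKO values above all controls was H1f0, at 42.9, 39.6 and 39.2 RPKM in cKO and 35.2, 37.4 and 37.1 in controls. It did not pass either (log2 fold change 0.15, limma adjusted p = 0.935).

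Of 16 tested histone chaperones, which carry histones to and from DNA, 7 were lower and 9 higher, with a median log2 fold change of 0.01. An unadjusted p under 0.05 was found for 0 of them (3.06% of all tested genes lower, 2.65% higher). All cKO values lay above all controls for 1, Supt16h (5.91% of all tested genes), and below them for 0 (5.78%). Nap1l4 was the most abundant, at 67.3 ± 4.14 RPKM in cKO and 62.4 ± 9.61 in controls (SD, n = 3 each). Atrx, which places H3.3 in heterochromatin together with Daxx, had the smallest p, with a log2 fold change of -0.19 (limma adjusted p = 0.906).

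S phase genes and markers of dividing cells were set beside these values, and how much cell division they reflect was not tested. Of 13 tested S phase genes, 8 were lower and 5 higher, with a median log2 fold change of -0.07, and 2, Mcm7 and Prim1, had all cKO values below all controls (5.78% of all tested genes) and an unadjusted p under 0.05 (3.06% lower). Pcna, the DNA polymerase clamp and the most abundant, was at 10.5 ± 1.31 RPKM in cKO and 12.1 ± 1.52 in controls (SD, n = 3 each). Mcm7, a subunit of the replicative helicase with the smallest p, was at 5.34, 5.26 and 5.27 RPKM in cKO and 6.27, 5.74 and 7.02 in controls (log2 fold change -0.24, limma adjusted p = 0.848). The 12 markers of dividing cells summed to 7.22 to 9.02 RPKM in cKO and 7.68 to 8.02 in controls. Ccna2 (mean 5.53 RPKM in cKO and 5.44 in controls) and Plk1 made up most of that sum, and the other 10, Mki67 and Top2a among them, had means from 0.013 to 0.164 RPKM. Their part in the histone levels was not tested.

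RNAs known to carry no poly(A) tail, mostly small nucleolar and Cajal body RNAs, formed the last companion list. Whether reads at these loci came from the untailed RNAs or from other transcripts that overlap them was not tested. Their values are therefore no measure of untailed RNA in the libraries. Of 63 tested, 34 were lower and 29 higher, with a median log2 fold change of -0.06, and 7 had all cKO values below all controls and 1 above, beside 5.78% and 5.91% of all tested genes. An unadjusted p under 0.05 was found for 9 of them, 7 lower, where 3.06% of all tested genes were lower and 2.65% higher. They summed to 315, 308 and 371 RPKM in cKO and 386, 341 and 344 in controls. Scarna17, the most abundant, was at 51.3, 54.9 and 44.8 RPKM in cKO and 63.7, 58.3 and 44.6 in controls. Snord23 had the smallest p, at 3.30, 3.38 and 2.67 RPKM in cKO and 1.76, 1.81 and 2.24 in controls, on 4 to 12 reads per library (log2 fold change 0.57, limma adjusted p = 0.502).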

How the data were processed

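RNA was sequenced from 6 libraries of poly(A)-selected retinal RNA. Retinas were homogenized in groups of 2, RNA of 4 mice was pooled for a library, and cDNA was made with random primers without marking the strand, per the labels' protocols. GSNAP, HTSeq and the mm9 build are named in the submitters' processing notes, with no versions. The authors deposited RPKM values per gene, used here as they stand; the sources used here do not give the annotation, the read length or the handling of reads with several matches. Groups follow the source name in the labels.

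Whole reads were worked back from the RPKM steps for 100% of the 19140 genes above 0, with denominators of 15128203 to 40523119 reads. The denominator that most genes with 1 annotated transcript shared was taken for each library, and between 51.5% and 52.4% of the read numbers above 0 were then odd. A multiple of a denominator would fit the values too, so whether a library's reads were counted 2 times could not be told. Fits used limma 3.58.1 in R 4.3.3 on log2(RPKM + 0.5), allowing a variance trend, for genes averaging 1 RPKM or more, and p-values were adjusted by Benjamini-Hochberg. Fold changes of low genes are understated on that scale. The same steps were tested on simulated data. Single genes also had an exact two-sided permutation test. Genes were placed with GENCODE M21 (GRCm38), not the authors' build. Alternatives were other pseudocounts, filters, scaling, limma voom on recovered reads, a replicate block and leaving out each library.

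The members and lists were chosen with earlier results of these data known. Every member averaging 1 RPKM or more is named; values in every library are given for the 8 highest and the 5 with the smallest p, and for others where they show the spread. Members under 1 RPKM are given by type with the highest named. Of each companion list the most abundant gene and that with the smallest p are named. Slbp, H1f0, Supt16h, Prim1, Brd8's values, Hist1h3d and Hist1h2be are given beyond that rule. All sample columns were used. Replicates did not duplicate each other: between any pair of a group the chi-square per degree of freedom over genes was at least 11.2.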

Additional observations from a re-analysis of the deposited data

How the results depend on the processing

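Of the log2 fold changes of the 16 histone genes under all alternatives, 191 stayed on their side of the threshold and in their direction, or moved by less than the spread between libraries. Under no alternative with more than 4 libraries did any of the 16 histone genes pass. Over all tested genes, centring on the library median called 3 higher, limma voom on the recovered reads 2 higher and 1 lower, and the fit without a filter 2 lower. Leaving out each library in turn gave 1 higher and 0 lower each time, and moved the median log2 fold change of the histone genes between -0.28 (without cKO library 4) and 0.053 (without cKO library 3). The replicate numbers do not pair the samples: only numbers 2 and 3 are shared, and deviations correlated at 0.465 and -0.052. With a replicate block on these 4 libraries, which leaves 1 residual degree of freedom, 86 genes were called higher and 106 lower, and 2 histone genes lower, Hist2h4 (log2 fold change -0.61, limma adjusted p = 0.00548) and Hist1h4d (-0.57, 0.00908). The same 4 libraries with no block, chosen after seeing the data, called 1 higher and 0 lower. Over all alternatives the log2 fold change of Hist2h4 ran from -0.71 to -0.58, that of Hist1h4d from -0.84 to -0.57 and that of Hist1h1e from -0.43 to -0.23. Another 31 of these log2 fold changes did not. Changes of sign occurred in the members whose log2 fold change lay between -0.08 and 0.12 in all 6 libraries, except Hist1h4c. Hist1h2bg changed sign too and came to -0.0035 without cKO library 4. Those of Hist1h2ac and Hist2h3c2-ps kept their sign and went as low as -0.58 and -0.51. Levels with few reads, those of Hist2h4 and Hist1h4d included, are limited by counting error, and members with close copies by the placing of reads.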
